A study of Homo sapiens with 6 samples.

Results

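SGK1, DUSP1 and MKNK2 are 3 genes of growth factor and stress signalling, taken by their symbols from the 5187 genes that the count files list. All 3 are listed, as ENSG00000118515 (SGK1), ENSG00000120129 (DUSP1) and ENSG00000099875 (MKNK2). They were selected on the measured GABA against control difference in these same 6 libraries, SGK1 and DUSP1 as higher and MKNK2 as lower with GABA, so these differences are described here with no test. The libraries came from Huh7, an established human hepatocellular carcinoma line grown in medium with serum. Per the labels, 3 cultures were controls and 3 received GABA (gamma-aminobutyric acid) for 24 h, each group numbered as biological replicates 1, 2 and 3; the labels give no dose and no vehicle. The comparison asks which transcripts differ in these cells after exposure to this neurotransmitter.

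SGK1 encodes the serum- and glucocorticoid-regulated kinase, a relative of the AKT kinases that is switched on through mTORC2 and PDK1 and acts on ion channels, transporters and FOXO transcription factors. DUSP1 encodes a nuclear dual specificity phosphatase, also called MKP-1, that removes the activating phosphates from the MAP kinases p38, JNK and ERK. The messages of both are classic rapidly induced, short-lived transcripts, raised by serum, glucocorticoids and stress. MKNK2 encodes MNK2, a kinase that ERK and p38 switch on; it docks on the scaffold eIF4G and phosphorylates the cap-binding translation factor eIF4E.

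A window of 250 bases before a transcription start of each gene is shown, since SGK1 and DUSP1 were higher and MKNK2 lower with GABA. Each window lies before an annotated start of its gene, and SGK1 and MKNK2 have other starts as well. Sequences are from RefSeq on GRCh38.p14, the hg38 build that the submitters' processing notes name, and all 3 genes were matched by symbol. All 3 lie on the minus strand, and each sequence is printed 5′ to 3′ on the gene's own strand, ending 1 base before the start. Capitals mark TATAA on the gene strand 40 to 20 bases before the start, and TGACG on either strand, the core of the cAMP response element.
SGK1, chr6:134174867-134175116: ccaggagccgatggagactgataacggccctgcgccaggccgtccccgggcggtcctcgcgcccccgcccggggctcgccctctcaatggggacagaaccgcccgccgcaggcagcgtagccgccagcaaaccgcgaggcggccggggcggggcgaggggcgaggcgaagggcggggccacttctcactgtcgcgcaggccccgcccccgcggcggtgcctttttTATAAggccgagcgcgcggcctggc
DUSP1, chr5:172771196-172771445: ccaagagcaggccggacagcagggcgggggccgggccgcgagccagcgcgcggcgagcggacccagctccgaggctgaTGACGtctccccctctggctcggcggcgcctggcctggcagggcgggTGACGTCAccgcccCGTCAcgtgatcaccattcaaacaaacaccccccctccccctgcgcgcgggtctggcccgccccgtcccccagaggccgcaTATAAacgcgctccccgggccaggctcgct
MKNK2, chr19:2051245-2051494: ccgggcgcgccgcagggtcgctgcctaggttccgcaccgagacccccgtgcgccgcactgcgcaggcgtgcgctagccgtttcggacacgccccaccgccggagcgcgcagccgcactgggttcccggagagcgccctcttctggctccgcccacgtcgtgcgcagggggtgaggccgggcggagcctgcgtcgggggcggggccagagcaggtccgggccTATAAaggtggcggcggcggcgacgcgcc
Each window had a TATAA match, which began 25 bases before the start in SGK1, 30 in DUSP1 and 29 in MKNK2. Of 35114 RefSeq windows of the same length, 3.91% had TATAA in that place. All 3 windows were rich in G and C, at 76.0% in SGK1, 74.4% in DUSP1 and 77.2% in MKNK2 (median of all windows 58.0%).

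DUSP1 differed from the other genes in its cAMP response elements. Its window held 1 full TGACGTCA, 125 to 118 bases before the start, and 4 matches to TGACG over both strands, of which 2 lie inside the full element. A full TGACGTCA was in 1.65% of all windows and TGACG in 21.2%. It also held 1 E-box, CACGTG, which overlaps the TGACG match nearest to the start by 2 bases (6.35% of all windows). The SGK1 and MKNK2 windows shown have neither TGACG nor CACGTG. GC boxes, GGGCGG on either strand, numbered 6 in SGK1, 4 in DUSP1 and 3 in MKNK2 (at least 1 in 42.6% of all windows). In MKNK2 the TATAA match lies inside a match to the CArG box of SRF, which 1.16% of all windows have. TGANTCA (AP-1), GTAAACA (FOXO), AGAACA (the core of the glucocorticoid response element) and CCAAT, searched on both strands, had no match in the 3 windows. These are letter matches in short windows, not measured binding. For SGK1, the RefSeq promoter windows used here include 2 further starts, 134177861 and 134318112. The window before 134177861 has TATAA 15 bases before the start. The window before 134318112 has it on the opposite strand alone, and neither has TGACG. Other annotated SGK1 transcripts begin elsewhere, for example at 134175991, and windows before those starts were not analysed here. The start shown is the one near which, within 50 bases, 9 of the 30 GENCODE transcripts of SGK1 begin. For MKNK2, 4 of the 13 GENCODE transcripts begin within 50 bases of the start shown, and its other starts were not analysed. The counts are per gene and do not tell the starts of SGK1 apart, nor the starts and splice forms of MKNK2.

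**Figure D1:**
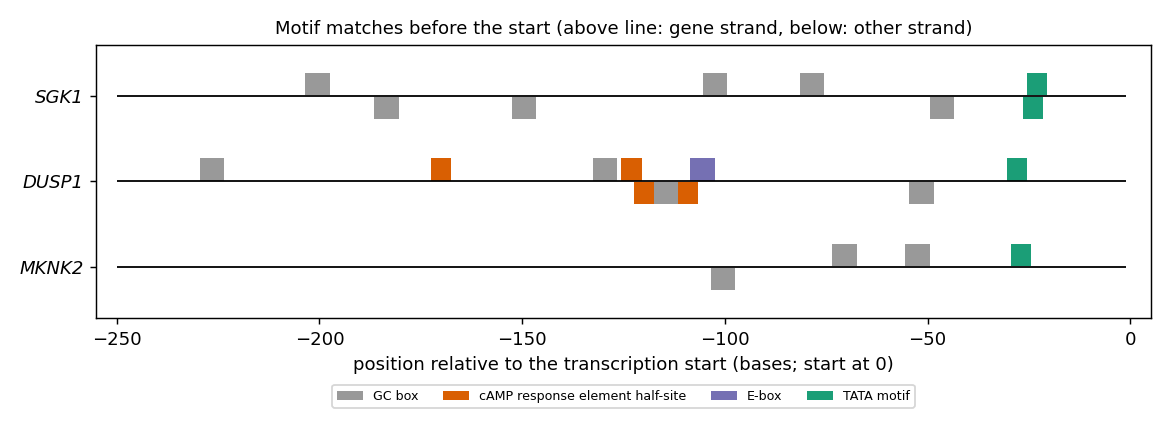
Motif matches in the 250 bases before the transcription start of SGK1 (start at 134174866), DUSP1 and MKNK2; the horizontal axis is the distance from the start in bases, and bars above or below each line are matches on the gene strand or the other strand. All 3 genes have a TATAA match 25 to 30 bases before the start, and only DUSP1 among these 3 windows has TGACG (orange) and CACGTG (purple).

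Levels are given as CPM, read counts per 1000000 counts on the listed genes after TMM scaling, a correction for library composition. The files list a part of the genes, in an order that follows the comparison: file position and the p for GABA against control rose together across the 4981 tested genes (Spearman rho 0.931, genes are not independent replicates). Among tested genes the smallest absolute log2 fold change was 0.123 and the lower quartile 0.284, so changes near 0 are absent. The medians given below, over lists and over all tested genes, therefore depend strongly on which direction holds more genes. In edgeR's quasi-likelihood test with Benjamini-Hochberg adjustment at 0.05, 98.7% of tested genes passed, 47.6% higher and 51.2% lower, so a pass says little about any one gene. The adjustment ran over the listed genes alone. The adjusted p values printed below are therefore no false discovery rate over all genes, and they serve as description. Totals on listed genes ran from 7702666 to 8392945 per library. The 15 listed mitochondrially encoded genes took 9.11% of counts on listed genes in control replicate 3 and 6.66% to 7.74% in the other 5 libraries. This mitochondrial share is not a share of all transcripts. Of 23 hepatocyte and hepatoma markers KRT8 and KRT18 are listed, so these files do not allow a check of the hepatoma identity. None of 8 immune or 6 endothelial markers are listed; 3 of 7 fibroblast markers and 3 of 8 kidney and cervix line markers are.

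SGK1 was read 6701, 6108 and 6529 times in control replicates 1, 2 and 3 and 12050, 12379 and 12906 times in GABA replicates 1, 2 and 3. As CPM these are 813, 791 and 830 in control and 1548, 1599 and 1523 in GABA libraries. The groups lay far apart and each was tight, with the lowest GABA library 1.83 times the highest control library. The mean went from 812 ± 19.8 to 1557 ± 38.9 CPM (SD, n = 3), 1.92-fold, a log2 fold change of 0.94 ± 0.057 (SE). SGK1 stood above 97.6% of tested genes in mean CPM. Of the 2373 tested genes with positive log2 fold changes 310 had a larger one, and 4 of the 332 among them whose mean reached 300 CPM. In bulk RNA, a change in the number of cells that express a gene and a change in RNA per cell cannot be told apart.

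DUSP1 had 3164, 3524 and 3389 reads in control and 4915, 5039 and 4690 in GABA libraries, in the order of the replicates. The CPM values were 384, 456 and 431 in control and 631, 651 and 553 in GABA. The groups did not overlap, but the gap was narrower than for SGK1: GABA replicate 3, the lowest treated library, was 1.21 times control replicate 2, the highest control. The means were 424 ± 36.7 and 612 ± 51.6 CPM (SD, n = 3), 1.44-fold, with a log2 fold change of 0.53 ± 0.081 (SE). Of the 2373 tested genes with positive log2 fold changes 895 had a larger one, and 40 of the 332 whose mean reached 300 CPM.

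MKNK2 had 4512, 4633 and 3434 reads in control and 1609, 1624 and 1929 in GABA libraries. The CPM values were 548, 600 and 437 in control and 207, 210 and 228 in GABA. Every GABA library was under every control library, and the 2 groups differed in spread, since control replicate 3 was well below the other control libraries while the GABA libraries were close together. The means were 528 ± 83.3 and 215 ± 11.3 CPM (SD, n = 3), a level with GABA at 40.7% of control and a log2 fold change of -1.30 ± 0.102 (SE). Without control replicate 3, the library with the highest mitochondrial share, it was -1.42; the part of that share in the MKNK2 value was not tested. Of the 2608 tested genes with negative log2 fold changes 111 had a more negative one, and 0 of the 339 among them whose mean reached 300 CPM. The groups did not overlap in 3 of 3 members, as in 92.5% of tested genes.

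**Figure D2:**
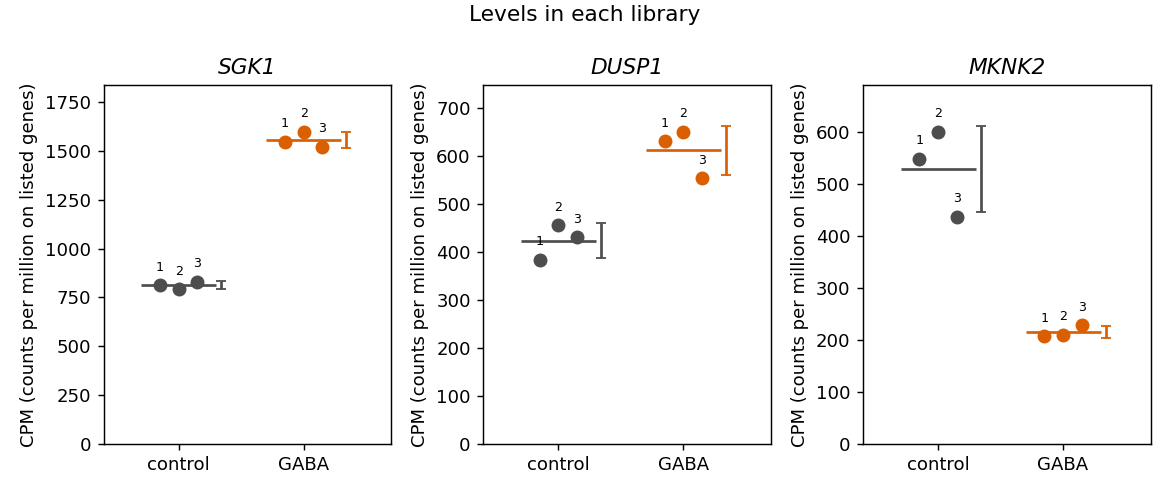
CPM of SGK1, DUSP1 and MKNK2 in each of the 3 control (grey) and 3 GABA (orange) libraries; numbers are replicates, horizontal lines group means and bars the SD. The SGK1 groups are 693 CPM apart and the DUSP1 groups 97.2 CPM, the narrowest gap of the 3, and control replicate 3 is the lowest MKNK2 control at 437 CPM.

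The spread between replicates exceeded counting error in each gene and group. Counting alone gives a CV of 1.25% for SGK1, 1.73% for DUSP1 and 1.54% for MKNK2 in the control libraries. The observed CV there was 2.44% for SGK1, 8.65% for DUSP1 and 15.8% for MKNK2. In GABA libraries it was 2.50% for SGK1, 8.43% for DUSP1 and 5.27% for MKNK2. SGK1 was thus the steadiest of the 3 in both groups, as described by these 3 libraries each, and MKNK2 the most variable among controls.

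Ratios of counts within a library do not depend on how libraries are scaled. SGK1 had 1.49, 1.32 and 1.90 reads for each MKNK2 read in control replicates 1, 2 and 3, and 7.49, 7.62 and 6.69 in GABA replicates 1, 2 and 3. The mean ratio was 1.57 ± 0.30 in control and 7.27 ± 0.504 in GABA (SD, n = 3), 4.63 times as high. DUSP1 reads were fewer than MKNK2 reads in every control library, at ratios of 0.701, 0.761 and 0.987, and more in every GABA library, at 3.05, 3.10 and 2.43. The SGK1 to DUSP1 ratio moved least, from 1.93 ± 0.192 to 2.55 ± 0.172. In sum the 3 genes took 0.166% to 0.185% of counts on listed genes in control and 0.233% to 0.246% in GABA libraries.

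**Figure D3:**
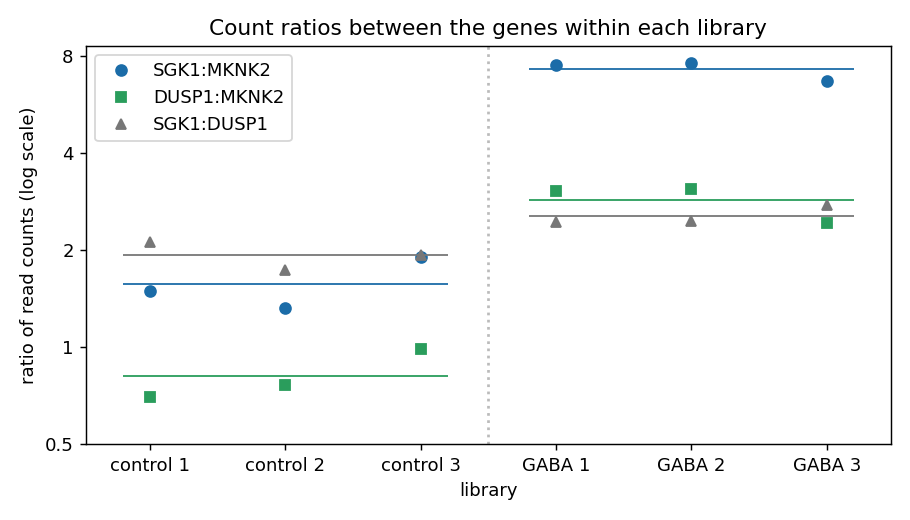
Ratios of raw read counts between the genes within each library, on a log axis; points are libraries and lines group means. SGK1 to MKNK2 goes from 1.32 to 1.90 in controls to 6.69 to 7.62 with GABA, and DUSP1 to MKNK2 goes from below 1 to above 2.

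Between genes, levels can be compared only per length, and here the order depended on the length taken. Per kb of all annotated exons (9992 bases for SGK1, 2019 for DUSP1 and 5221 for MKNK2), control libraries had 81.2 ± 1.98 CPM per kb for SGK1, 210 ± 18.2 for DUSP1 and 101 ± 16.0 for MKNK2 (SD, n = 3). DUSP1 was then the highest, and MKNK2 and SGK1 differed by little more than the MKNK2 spread. With GABA the values were 156 ± 3.89 for SGK1, 303 ± 25.5 for DUSP1 and 41.1 ± 2.17 for MKNK2, which puts MKNK2 last beyond the spread. Per kb of the main RefSeq transcript of SGK1, 2401 bases long, SGK1 had 338 ± 8.24 in control and 648 ± 16.2 with GABA, above DUSP1 in both groups. A choice between these lengths needs transcript counts. MKNK2 was last with GABA under each of the 3 lengths tried. None of the exon length of the 3 genes overlaps another gene in GENCODE 29, so overlap does not add reads to them.

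The nearest relatives of the 3 genes went several ways. SGK3, the endosomal relative of SGK1, was scarce and fell from 21.7 ± 1.26 to 14.3 ± 2.19 CPM (log2 fold change -0.60 ± 0.15, edgeR adjusted p = 0.0035), opposite to SGK1. SGK2 has no listed counts. Of 9 MAP kinase phosphatases other than DUSP1, 3 are listed and 3 rose (median log2 fold change 0.39, against -0.18 over all tested genes). The list thus holds 3 genes, and 47.6% of all tested genes passed as higher. DUSP4, a nuclear phosphatase of ERK and JNK, had 65.1, 57.4 and 55.3 CPM in control and 70.1, 80.9 and 71.5 in GABA libraries (0.32 ± 0.10, edgeR adjusted p = 0.01), a call lost without GABA replicate 2. DUSP8, which acts on JNK and p38, went from 5.58 ± 0.427 to 10.5 ± 1.23 CPM (0.91 ± 0.19, edgeR adjusted p = 0.0015). DUSP10, another phosphatase of JNK and p38, went from 27.9 ± 2.41 to 36.5 ± 1.30 (0.39 ± 0.11, edgeR adjusted p = 0.0069). The ERK phosphatases DUSP5 and DUSP6, which read out ERK activity, are not listed. Of 15 other dual specificity phosphatases, DUSP3 (-0.16) and DUSP12 (-0.24) are listed and passed as lower, but neither passed with DESeq2 size factors. MKNK1, the close relative of MKNK2, is not listed, and neither is any other of the 10 MAP kinase-activated kinases searched, among them the RSK and MAPKAPK families.

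Around SGK1, 5 of 20 kinases and regulators are listed, of which 2 rose and 3 fell (median -0.27). MTOR, the kinase of mTORC2 and mTORC1, rose from 216 ± 10.9 to 268 ± 9.03 CPM, and MLST8, a subunit of both complexes, from 97.8 ± 10.6 to 145 ± 1.51. UBE2G2, a ubiquitin-conjugating enzyme of the degradation pathway of the endoplasmic reticulum, fell at -0.27 ± 0.06. Of 19 substrates and channel pathway genes 5 are listed, 3 of them higher and 2 lower (median 0.18). NEDD4L, the ubiquitin ligase that SGK1 phosphorylates and thereby holds off the epithelial sodium channel, was the largest of these in change and had 717, 741 and 757 CPM in control and 1080, 1130 and 1050 in GABA libraries. Its groups did not overlap, and the log2 fold change was 0.55 ± 0.06 (edgeR adjusted p = 2.3e-05). MDM2, the ligase of p53, had 0.40 ± 0.09 and WNK1, a kinase of ion transport, 0.18 ± 0.06. NDRG1, whose phosphorylation is a common readout of SGK1, fell in transcript level from 87.1 ± 8.31 to 68.5 ± 3.76 CPM (-0.35 ± 0.09). Transcript counts hold no information on phosphorylation.

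Most listed genes of the FOXO list, factors that SGK and AKT kinases inhibit and their targets, were lower: of 21 genes 8 are listed, 6 fell and 2 rose, with a median of -0.32. TXNIP, an arrestin domain protein that limits glucose uptake, had -1.17 ± 0.08 (931 to 413 CPM), CCNG2, an atypical cyclin, -0.50 ± 0.09, the insulin receptor INSR -0.36 ± 0.11 and catalase, CAT, -0.36 ± 0.09. The share that fell stands beside 51.2% of all tested genes, and the list has 8 genes.

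Genes induced by glucocorticoids, like SGK1 and DUSP1 themselves, did not share one direction. The list of 24 genes holds such genes and also NR3C1, the gene of the glucocorticoid receptor. Of these 9 are listed, 4 higher and 5 lower (median -0.16, and 3 lower without GABA replicate 3). NR3C1 is among the 5 lower, at -0.16 ± 0.06, the value of the median. RGS2, a regulator of G protein signalling, rose from 12.5 ± 3.06 to 32.3 ± 1.49 CPM (1.37 ± 0.16, edgeR adjusted p = 4.5e-05), and PER1, a clock gene, rose by 0.39 ± 0.10. CEBPD, a transcription factor, had -0.89 ± 0.22 at 18.5 and 9.96 CPM. FKBP5 and ZBTB16, widely used readouts of the receptor, are not listed. In the list of cell volume and osmotic response, a further setting in which SGK1 is induced, 6 of 16 genes are listed. Of these 5 were lower and 1 higher (median -0.41), beside 51.2% lower over all tested genes. SLC38A2, an amino acid transporter, fell from 1690 ± 112 to 1180 ± 33.7 CPM (-0.51 ± 0.06), SLC6A6, the taurine transporter, had -0.72 ± 0.11, HSPA4L, a chaperone, -0.45 ± 0.10, and LRRC8D, a subunit of the volume-regulated anion channel, -0.37 ± 0.08.

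Of the MAP kinases, a family that includes the targets of DUSP1 and the activators of MNK2, 5 of 14 are listed. Not every one of these has both relations. MAPK3 (ERK1) rose from 64.9 ± 6.23 to 82.7 ± 3.03 CPM, MAPK7 (ERK5) had 0.37 ± 0.10 and MAPK8 (JNK1) 0.29 ± 0.08. MAPK9 (JNK2) at -0.21 ± 0.08 and MAPK6 (ERK3) at -0.18 ± 0.08 passed as lower, and neither passed with DESeq2 size factors. MAPK14 (p38 alpha) is not listed. Upstream, 9 of 29 MAP2K, MAP3K and adaptor genes are listed, 7 lower and 2 higher (median -0.24), beside 51.2% lower over all tested genes. MAP3K21 had the largest change at -1.09 ± 0.18 (15.5 to 7.28 CPM), followed among those named by MAP2K4, a JNK and p38 activator, at -0.38 ± 0.09, MAP3K20 at -0.24 ± 0.06 and MAP3K14, the NF-kB inducing kinase, at -0.23 ± 0.07.

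Genes that follow ERK activity were split, with 9 of 20 listed, 5 higher and 4 lower (median 0.18). SPRY2, a feedback inhibitor of receptor signalling, rose from 111 ± 7.78 to 167 ± 10.3 CPM (0.59 ± 0.08, edgeR adjusted p = 1.1e-04), whereas its relative SPRY4 fell from 335 ± 21.3 to 266 ± 7.35 (-0.33 ± 0.07). PHLDA1 rose by 0.32 ± 0.06 and the cytokine IL11 by 0.89 ± 0.17. HBEGF (0.41 ± 0.09) and EPHA2 (0.18 ± 0.07) were also higher. ETV5 (-0.30 ± 0.07), ETV4 (-0.27 ± 0.08) and SPRED1 (-0.19 ± 0.06) were lower, and SPRED1 did not pass with DESeq2 size factors. Of 31 immediate early genes, the class of DUSP1, 14 are listed, with 6 higher, 7 lower and 1 that did not pass (median -0.21). JUN rose from 797 ± 87.5 to 1110 ± 61.6 CPM (0.48 ± 0.08) and JUND by 0.31 ± 0.06, while KLF10 (-0.72 ± 0.10) and KLF2 (-0.39 ± 0.07), zinc finger factors, fell. FOS, EGR1 and IER2 are not listed.

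Of 21 genes of cAMP and CREB signalling, which acts through cAMP response elements, 6 are listed, 5 higher and 1 lower (median 0.34). Over all tested genes 47.6% passed as higher. Whether the letter match in the DUSP1 window is used in these cells was not tested. Without GABA replicate 2, 2 passed as higher, and without control replicate 1 or GABA replicate 1 it was 3. AKAP12, an anchor of protein kinase A, rose from 122 ± 5.29 to 229 ± 16.6 CPM (0.91 ± 0.08, edgeR adjusted p = 4.1e-06). The 2 catalytic subunits of that kinase went apart, PRKACA at 0.32 ± 0.11 and PRKACB at -0.49 ± 0.09, and the coactivator EP300 had 0.21 ± 0.07. Of 11 proteins that bind AU-rich messages such as that of DUSP1, 4 are listed. ZFP36 had -0.30 ± 0.12 and did not pass with DESeq2 size factors. HNRNPD (0.40 ± 0.11), KHSRP (0.26 ± 0.10) and ELAVL1 (0.21 ± 0.07) rose, and without GABA replicate 3, 1 of these 3 passed. The decay of the DUSP1 message was not measured.

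At the target of MNK2, 6 of 20 genes of cap-binding and translation initiation are listed, and all 6 passed as lower, like MKNK2 (median -0.27, against -0.18 over all tested genes, of which 51.2% passed as lower). PDCD4, an inhibitor of the helicase eIF4A, fell from 87.2 ± 7.91 to 59.7 ± 3.56 CPM (-0.55 ± 0.10, edgeR adjusted p = 5.7e-04), although 29.5% of its exon length overlaps other genes. EIF4B, the helicase cofactor, had -0.24 ± 0.06 at 1810 and 1530 CPM, PAIP2, a repressor of poly(A)-binding protein, -0.31 ± 0.08, and PAIP1, its activator, -0.23 ± 0.07. Other genes also overlap 11.9% of the exon length of EIF4B, 21.0% of PAIP2 and 24.2% of EIF4E2, another of the 6. With DESeq2 size factors 5 of the 6 passed, and without control replicate 1 or GABA replicate 3 it was 4. EIF4E, EIF4G1 and EIF4EBP1, the substrate, scaffold and inhibitor, are not listed. In the mTORC1 branch, the other signal to the cap, 9 of 24 genes are listed, 2 higher, 6 lower and 1 that did not pass (median -0.23), with 2 lower under DESeq2 size factors, without GABA replicate 1 or without GABA replicate 3. DDIT4, an inhibitor of mTORC1, had -1.20 ± 0.12, with 41.2% of its exon length overlapping an antisense gene, and RRAGD, a lysosomal GTPase, -0.37 ± 0.11. RPTOR, the defining subunit of mTORC1, rose by 0.30 ± 0.07 and RPS6KB2, an S6 kinase, by 0.30 ± 0.11.

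Over the 16 lists together, 100 of 303 genes are listed, 41 higher, 57 lower and 2 that did not pass. These shares are near those over all tested genes, 47.6% higher and 51.2% lower, and the median log2 fold change was -0.21 against -0.18. Both depended on the scaling. With DESeq2 size factors 41 pathway genes passed as higher and 40 as lower, and over all tested genes 2373 and 2050.

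**Figure D4:**
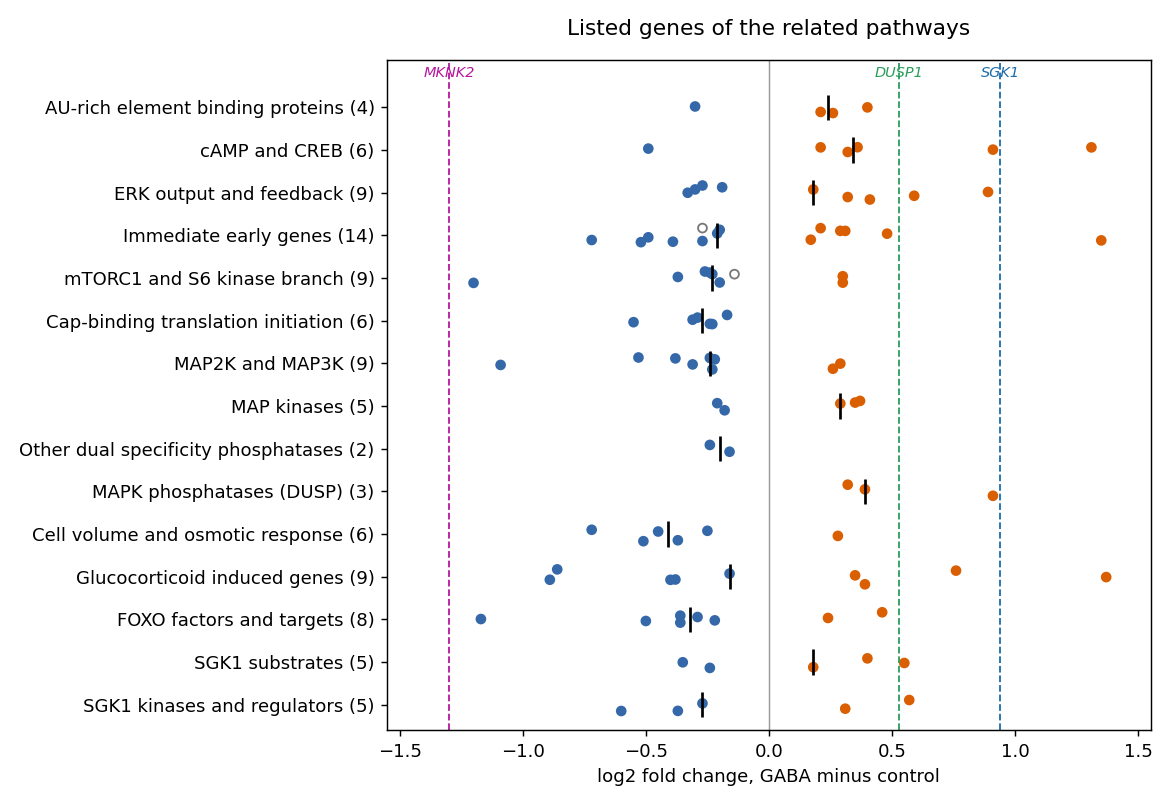
Log2 fold change, GABA minus control, of each tested gene of the related lists (number of genes in brackets); orange and blue points passed the test as higher or lower, open points did not pass, black bars are list medians and dashed lines the 3 members. All 6 cap-binding genes lie below 0 and all 3 MAP kinase phosphatases above it, and MKNK2 at -1.30 lies below every listed gene shown.

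Genes with the most similar profile were ranked by the root mean square difference from each member over the 6 libraries, on log2(CPM + 1) relative to the control mean, among the 3070 tested genes whose mean reached 50 CPM. This likeness includes the GABA difference that chose the members, and it also favours genes with the same order of replicates. Nearest to SGK1 were SOX9, a progenitor transcription factor (0.034), F3, tissue factor (0.044), FN1, fibronectin (0.057), CKAP2L, a spindle protein (0.062), and TBX3, a T-box factor (0.068); the median over the ranked genes was 0.79. SOX9 had 420, 415 and 417 CPM in control and 776, 812 and 816 in GABA libraries, close to the ratio between the SGK1 groups. Nearest to DUSP1 were CDCA8, a mitotic complex subunit (0.041), SPRY2 (0.058), PHF19, a Polycomb partner, and NUAK2, an AMPK-related kinase (0.070 each), and MYPN, myopalladin (0.072). SPRY2 had 104, 119 and 110 CPM in control and 166, 178 and 158 in GABA libraries, with GABA replicate 3 the lowest treated library as for DUSP1. Around DUSP1, 35 genes lay within 0.1, so these 5 are not set apart from many others.

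MKNK2 had few close neighbours, with 2 genes within 0.1 against 14 for SGK1. They were BEX2, a small adaptor protein (0.080), and DDIT4 (0.095), followed by ABCC3, an organic anion exporter (0.123), OSGIN1, an oxidative stress-induced growth inhibitor (0.149), and TXNIP (0.157). DDIT4 had 464, 511 and 339 CPM in control and 192, 185 and 197 in GABA libraries, and BEX2 had 73.3, 79.9 and 58.1 in control and 30.7, 29.2 and 30.0 in GABA. In both, control replicate 3 was the lowest control and replicate 2 the highest, as for MKNK2. The ranking favours such a shared order, so it is no separate result.

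**Figure D5:**
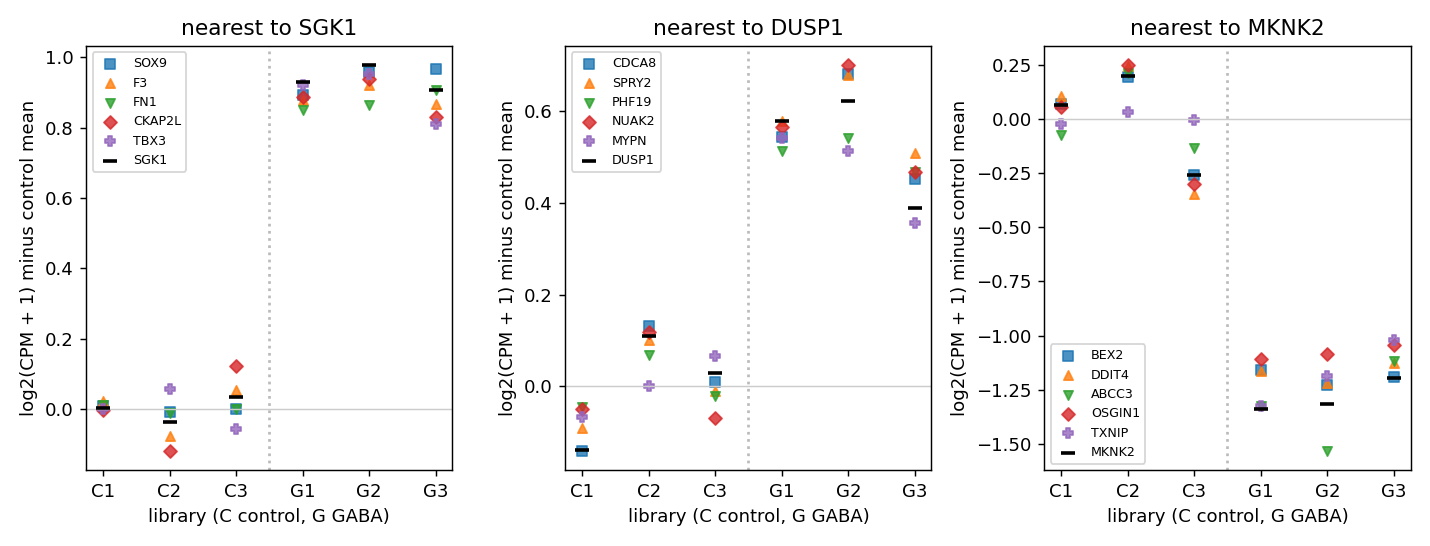
Profiles of the 5 genes nearest to SGK1, DUSP1 and MKNK2 over the 6 libraries (C1 to C3 control, G1 to G3 GABA), as log2(CPM + 1) minus the control mean; black dashes are the member. For MKNK2 the neighbours BEX2, DDIT4 and OSGIN1 share the low value in control replicate 3, and TXNIP does not.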

How the data were processed

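Transcripts of 3 control and 3 GABA libraries of Huh7 were measured by RNA sequencing. The authors deposited raw read counts for each Ensembl gene. Bowtie 0.12.2, CASAVA 1.8 and the build hg38 are named in the submitters' processing notes. The counting program, annotation release, use of strand and choice of the 5187 listed genes are not given in the sources used here, so counts of overlapping genes are uncertain. Totals are sums over listed genes, not library depths.

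The members and gene lists were chosen with earlier results of these data known. Symbols came from a gene name table (5173) or GENCODE release 29 (14). edgeR 4.0.16 in R 4.3.3 was used on all listed genes (filterByExpr, minimum count 10, minimum total 15, 4981 genes kept; TMM; robust quasi-likelihood F test; Benjamini-Hochberg at 0.05), with limma 3.58.1 and DESeq2 1.42.0 as alternatives. In simulated counts for this comparison (4938 tested genes), 200 genes were changed. Of those changed by a log2 of 0.5, 85.1% were called, of those changed by 1, 99.1%, and of unchanged genes, 0.148%. In the deposited counts 98.7% of tested genes passed, so the simulated rates check the code and do not describe the calls reported here. The simulated spread between libraries was the BCV of 0.0791 estimated by edgeR.

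Named genes were the members, fixed partners, all listed SGK, DUSP and MKNK relatives, up to 4 genes per list with the smallest p and a mean of at least 10 CPM, and the 5 nearest profiles per member. Other genes named in the text, such as MAPK6, were chosen after their values were seen. List sizes count symbols in the gene name table. The alternatives were other scalings, filters, tools, lengths, a replicate block and each library left out. Same-numbered libraries showed no shared deviation (correlations 0.000748, -0.0926 and -0.0367). Python 3.11.15 with pandas 2.3.3, numpy 2.4.6 and matplotlib 3.10.9 handled tables and figures.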

Additional observations from a re-analysis of the deposited data

How the results depend on the processing

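The members kept their direction in 14 alternative settings each: the log2 fold change ran from 0.92 to 0.98 for SGK1, 0.46 to 0.60 for DUSP1 and -1.42 to -1.20 for MKNK2. The SGK1 value was 0.98 with DESeq2 size factors and with DESeq2, which moved the median of all genes from -0.18 to -0.13. With DESeq2 size factors in edgeR, 2373 of all tested genes passed as higher and 2050 as lower, against 2369 and 2549 in the main fit. The 51.2% lower that the lists are set beside thus belongs to the main TMM fit. With the replicate number as a block, SGK1 had 0.94, DUSP1 0.53 and MKNK2 -1.29, and 4823 genes passed in place of 4918 (2371 higher and 2452 lower); the labels do not say what a number marks. The block ended the calls of DUSP3, NR3C1 and PABPC1. With a library left out, 29 to 39 pathway genes passed as higher and 40 to 54 as lower, against 41 and 57 with all libraries. Of 120 list and neighbour genes no sign changed in 1680 gene and setting values; 158 lost the call, in 41 genes. Without control replicate 3, SESN2 (-0.20) and JUNB (-0.38) passed as lower. Of the 5 nearest profiles, with a library left out, 3 to 5 stayed for SGK1, 1 to 3 for DUSP1 and 3 to 5 for MKNK2. Per kb, with the longest transcript as length, SGK1 over DUSP1 was 0.71 in control and 0.942 with GABA, MKNK2 over DUSP1 was 0.617 and 0.174, and SGK1 over MKNK2 was 1.17 and 5.43. With the main RefSeq transcript, a length chosen after seeing the data, these were 1.62 and 2.15, 0.669 and 0.189, and 2.47 and 11.4. How the listed genes were chosen is not given in the sources used here, so these settings bear on listed genes alone.

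List counts also moved by over 1.5 times, most of them counts of 1 or 2 genes. Lower calls came to 0 of 2 other dual specificity phosphatases, 0 of 2 MAP kinases, 1 of 2 SGK1 substrates, 2 of 6 mTORC1 branch genes and 0 of 1 AU-rich binding protein with DESeq2 size factors and with DESeq2. The same lists reached these counts without GABA replicate 1. So did the dual specificity phosphatases without control replicate 1 or GABA replicate 3 (1 without GABA replicate 2), the MAP kinases without control replicate 3 or GABA replicate 2 or 3 (1 without control replicate 1), the substrates without control replicate 1 or GABA replicate 2, the mTORC1 branch without GABA replicate 3 (3 without GABA replicate 2), and the AU-rich binding protein without control replicate 1 or 2 or GABA replicate 2 or 3. Without GABA replicate 3, lower calls were 3 of 5 genes of the glucocorticoid list. Higher calls came to 1 of 2 FOXO genes without any one library but control replicate 2, to 0 of 1 volume gene without control replicate 1 or 2 or GABA replicate 2 or 3, to 1 of 2 MAP2K and MAP3K genes without GABA replicate 1 or 2, and to 1 of 2 mTORC1 branch genes without GABA replicate 1 or 3. Without GABA replicate 2, 2 of 5 cAMP genes passed as higher, and without GABA replicate 3, 1 of 3 AU-rich binding proteins.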
